A study of Caenorhabditis elegans with 6 samples.

Results

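The 10 genes described here make, take up or regulate yolk in Caenorhabditis elegans, and were chosen by name: the vitellogenin genes vit-1 to vit-6, the yolk receptor gene rme-2, and the transcription factor genes unc-62, ceh-60 and mab-3. The 7 yolk and receptor genes were found by their sequence names and the 3 regulators by symbol in the WBcel235 annotation. They are 10 of 45343 features in the table. Messenger RNA was measured in whole larvae at the mid-L3 stage, the larval stage before L4,, in 3 libraries of N2 Bristol wild type (WT) and 3 of blmp-1(tm548), a mutant of the zinc-finger transcription factor gene blmp-1. Animals of both groups were synchronized by bleaching and grown on standard agar plates. The labels call the libraries biological replicates without saying how the cultures were kept apart, so p-values judge group differences against the spread between these libraries only. In whole larvae, fewer cells of a type and less RNA per cell cannot be told apart.

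Vitellogenins are large lipid-carrying proteins related to the apolipoprotein B of mammals. In C. elegans they are made in the intestine of adult hermaphrodites, secreted into the body cavity and taken up by growing oocytes through RME-2, a receptor of the low-density lipoprotein receptor family. Their genes are known to be switched on at the transition to adulthood, in hermaphrodites and not in males. The genes vit-3, vit-4 and vit-5 encode one form of the large yolk polypeptide, vit-1 and vit-2 the other form, and vit-6 a precursor that is cut into both smaller yolk polypeptides. In the intestine UNC-62, a homeodomain protein of the MEIS type, and CEH-60, of the PBX type, activate vitellogenin transcription, while MAB-3, a DM-domain protein related to Doublesex of Drosophila, represses it in males.

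Levels were FPKM, fragments per kilobase of transcript scaled by library size. Steps between the lowest values gave an estimated depth of 7650000 to 8230000 reads per library. Of all features, 17058 averaged 1 FPKM or more over the libraries and entered a limma test on log2(FPKM + 1). A call means a Benjamini-Hochberg adjusted p under 0.05 over all of them. All 10 genes passed this filter, and the lowest of their values (vit-3 in mutant replicate 2) stood for about 147 reads by the estimated depth. In the mutant 3.34% of all tested features were called higher and 3.06% lower, and the median log2 difference was 0.00. These shares include features whose values may stand for very few reads. An example is T10H4.19, at 29.4, 31.5 and 29.9 FPKM in WT and 0 in each mutant library. The number of such features was not determined. The blmp-1 transcript was at 64.9, 71.1 and 75.2 FPKM in WT and 40.3, 36.9 and 37.96 in the mutant (limma adjusted p = 0.00299). The labels do not give the part that tm548 removes, so this is a partial check of the genotype.

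All 6 vitellogenin genes had lower mean levels in the mutant, by 1.82-fold (vit-2) to 6.39-fold (vit-3) on mean FPKM, but none passed the test. Transcripts of the 3 genes of the vit-3 class and of vit-1 showed the larger differences, and those of vit-2 and vit-6 the smaller ones. Both groups varied widely, WT most. WT replicates 1 and 2 were high for each of the 6 genes, and WT replicate 3 was near the mutant libraries. Of the 10 genes only mab-3, the repressor, was called, and it rose by a small amount (log2 difference 0.36); calls in this direction made up 3.34% of all tested features.

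**Figure D1:**
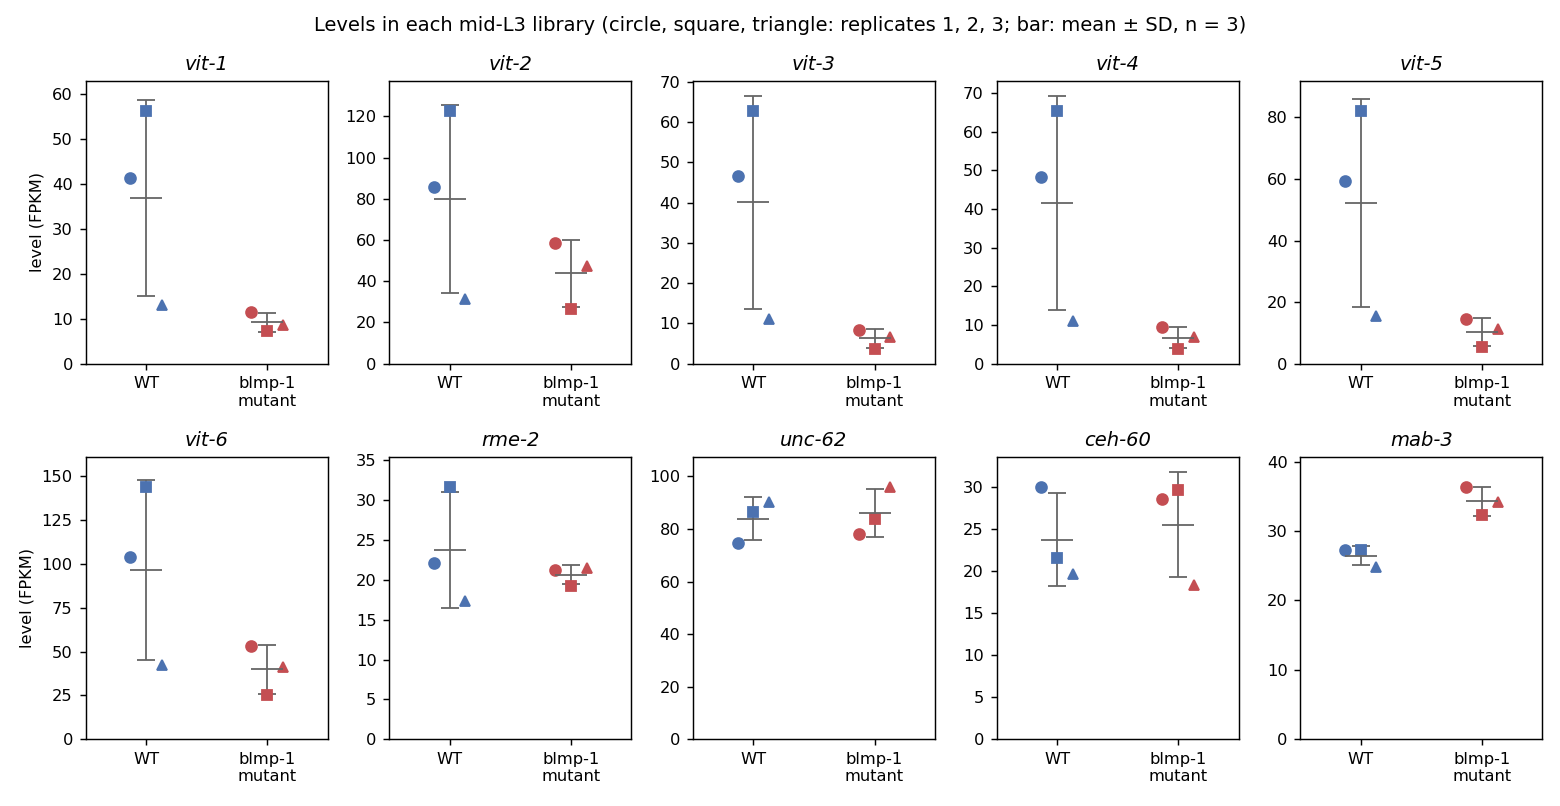
Level in FPKM (vertical axis, from 0, a separate scale in each panel) of the 10 genes in the 3 WT and 3 mutant libraries, with points for libraries and bars for the mean and SD. For the vitellogenins WT replicates 1 and 2 lie far above WT replicate 3, and for mab-3 the 3 mutant libraries, at 32.3 to 36.3 FPKM, lie above the 3 WT libraries.

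The vit-3 gene (F59D8.1) was at 46.6, 62.7 and 11.07 FPKM in WT replicates 1, 2 and 3 and at 8.43, 3.66 and 6.76 FPKM in mutant replicates 1, 2 and 3. Its neighbour vit-4 (F59D8.2) was at 48.2, 65.3 and 11.05 FPKM in WT and 9.46, 3.88 and 6.93 in the mutant. For both genes the mutant libraries were all below the lowest WT library, but WT replicate 3 was much closer to the mutant than to the other WT libraries. The log2 differences between mutant and WT were -2.25 for vit-3 (SE 0.648, limma adjusted p = 0.104) and -2.20 for vit-4 (SE 0.667, adjusted p = 0.117). The ratio of vit-3 to vit-4 stayed between 0.891 and 1.002 in the 6 libraries. These paralogs are similar in sequence, so reads could be divided among them by the counting and their values are not separate measurements.

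The third gene of this class, vit-5 (C04F6.1), was at 59.5, 81.98 and 15.45 FPKM in WT and 14.5, 5.45 and 11.12 FPKM in the mutant. The groups did not overlap, but mutant replicate 1 came within 1 FPKM of WT replicate 3. The log2 difference was -2.03 (SE 0.653, adjusted p = 0.134). The level of vit-5 was 1.28 to 1.40 times that of vit-3 in WT libraries and 1.49 to 1.72 times in mutant ones.

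In the other class, vit-1 (K09F5.2) was at 41.5, 56.2 and 13.1 FPKM in WT and 11.6, 7.36 and 8.65 FPKM in the mutant. It resembled the vit-3 class in that the groups did not overlap, with a log2 difference of -1.69 (SE 0.520, adjusted p = 0.121). Its partner vit-2 (C42D8.2) was at 86.0, 122 and 31.5 FPKM in WT and 58.3, 26.3 and 47.2 FPKM in the mutant. Here the groups overlapped, since mutant replicates 1 and 3 were above WT replicate 3. The log2 difference of vit-2 was -0.72 (SE 0.537, adjusted p = 0.485), with a 95% interval from -2.02 to 0.58.

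The precursor gene vit-6 (K07H8.6) was at 104, 144 and 42.1 FPKM in WT and 53.4, 25.5 and 41.1 FPKM in the mutant. Mutant replicate 1 was above WT replicate 3, so the groups overlapped. The log2 difference was -1.14 (SE 0.487, adjusted p = 0.230), with an interval from -2.33 to 0.04.

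Of the 6 genes, 4 had groups that did not overlap, with the mutant below (15% of all tested features did so in this direction). The same 4 genes, vit-1, vit-3, vit-4 and vit-5, had an unadjusted p under 0.05 (0.0126 to 0.0200), and limma called 0 after adjustment. Of all tested features 23% had an unadjusted p under 0.05, 1901 higher and 2016 lower of 17058, which is the background of the unadjusted counts given here and for the lists. The median log2 difference of the 6 was -1.86. Without WT replicate 3 limma called 4 of them lower, vit-1, vit-3, vit-4 and vit-5, with adjusted p of 0.0138, 0.0181, 0.0209 and 0.0327. Without any other single library 0 were called, and with library weights 5 were called, all but vit-2. Over all features limma called 315 of 16923 lower without WT replicate 3 and 2112 of 17058 lower with library weights. In the weighted fit WT replicate 2 had a weight of 4.07, and WT replicates 1 and 3 had 0.449 and 0.577. The log2 difference was below 0 for each of the 6 genes in each of the 14 alternative settings.

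**Figure D2:**
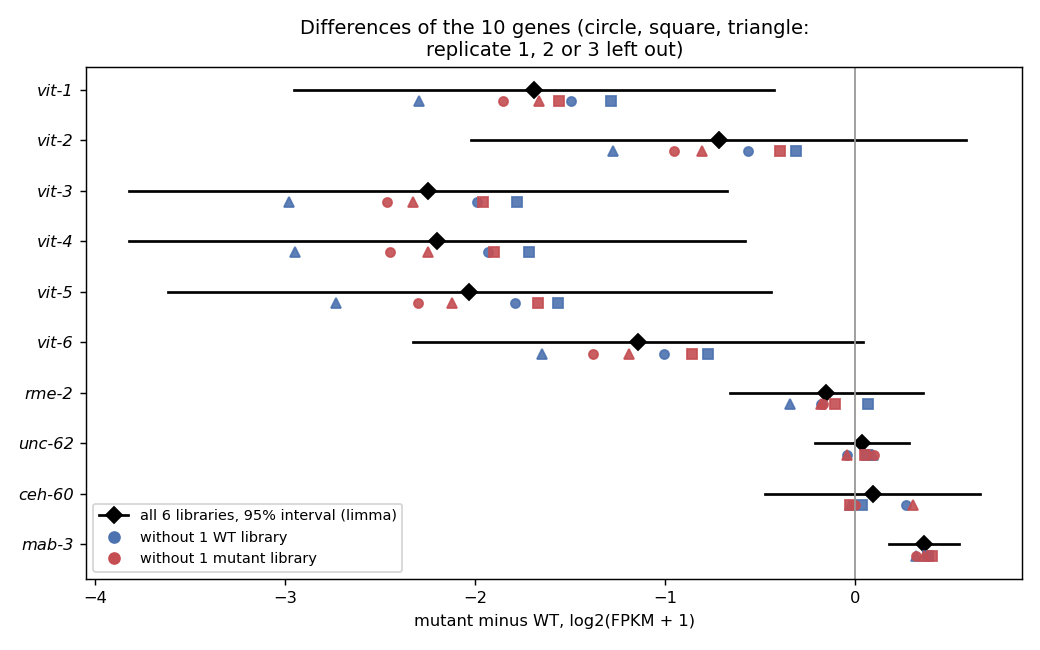
Difference between mutant and WT in log2(FPKM + 1) (horizontal axis) for the 10 genes, with the 95% interval of the limma fit to all 6 libraries and, beneath it, the difference after leaving out each library. The vitellogenins lie left of 0 with wide intervals, and the differences without WT replicate 3 (blue triangles) lie farthest left, at -2.98 for vit-3.

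The spread within WT was of the size of the difference between the groups. WT replicate 2 exceeded WT replicate 3 by 3.41-fold (vit-6) to 5.91-fold (vit-4). In the mutant, replicate 1 exceeded replicate 2 by 1.57-fold (vit-1) to 2.66-fold (vit-5). In all 6 genes WT replicate 2 was highest and WT replicate 3 lowest, an order found in 13.7% of all tested features. In all 6 genes mutant replicate 1 was highest and mutant replicate 2 lowest, an order found in 9.84%. The 6 genes are read in the same libraries and share sequence, so this is 1 pattern seen several times.

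The summed level of the 6 genes was 386, 532 and 124 FPKM in WT replicates 1, 2 and 3 and 156, 72.2 and 122 FPKM in mutant replicates 1, 2 and 3. The sum in WT replicate 3 lay inside the range of the mutant libraries. The shares of some genes in the sum nevertheless differed between these libraries of the groups. The gene vit-2 made up 22.3, 23.01 and 25.4% of it in WT and 37.5, 36.5 and 38.8% in the mutant, so the groups did not overlap. The gene vit-3 made up 12.1, 11.8 and 8.91% in WT and 5.41, 5.07 and 5.55% in the mutant. For vit-6 alone the shares were 26.96, 26.98 and 33.89% in WT and 34.31, 35.34 and 33.74% in the mutant, so the groups overlapped. Together vit-2 and vit-6 contributed 52.8 ± 5.57% in WT against 72.04 ± 0.427% in mutant libraries (SD, n = 3). By library this joint share was 49.25, 49.99 and 59.25% in WT and 71.77, 71.81 and 72.53% in the mutant. Within WT it was thus highest in replicate 3, where the summed level was lowest. The ratio of vit-2 to vit-1, the pair of one class, was 2.07, 2.18 and 2.41 in WT and 5.04, 3.58 and 5.46 in the mutant. These shares were compared after the values were seen and are given without a test. Whether differences at high levels are compressed, which would alter the shares, was not tested.

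**Figure D3:**
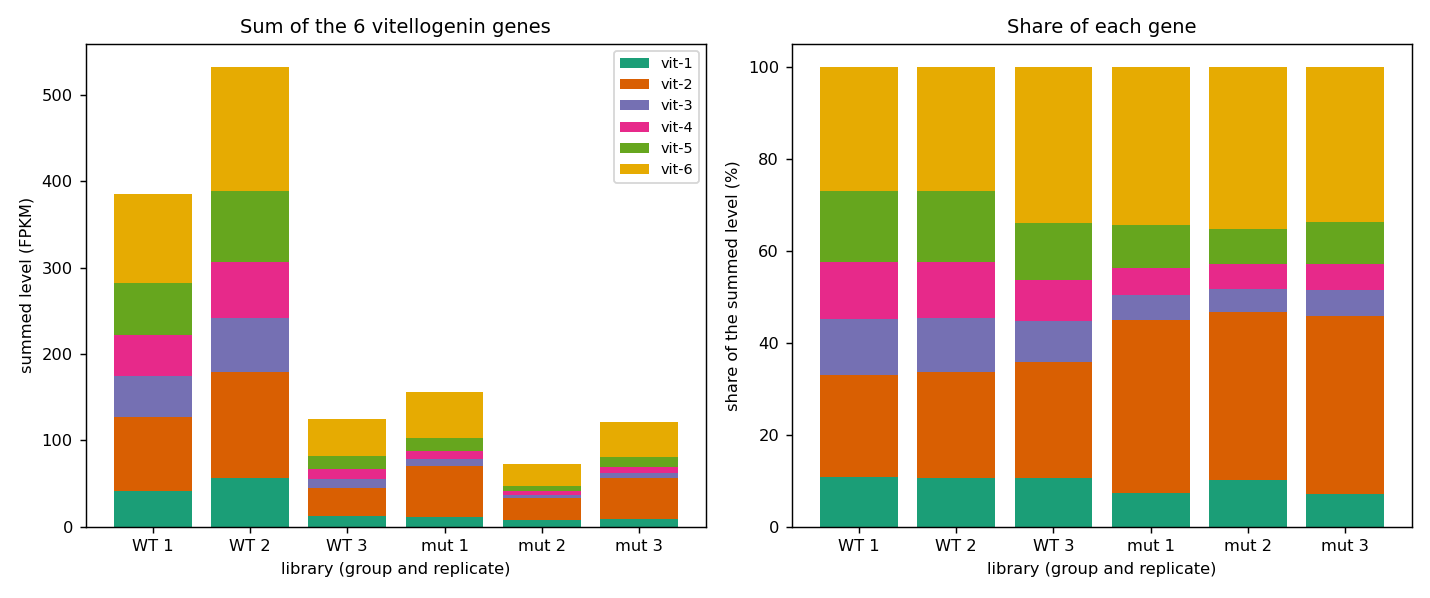
Left, level of the 6 vitellogenin genes stacked to their sum in FPKM in each library. Right, the share of each gene in that sum in percent. The sum of WT replicate 3 (124 FPKM) is like that of mutant replicate 3 (122 FPKM), while the share of vit-2 is 25.4% in the first and 38.8% in the second.

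Within each WT library the vitellogenins ranked vit-6, vit-2, vit-5 from the top by FPKM, which is per length, and within each mutant library vit-2 stood above vit-6. The ratio of vit-2 to vit-6 was 0.748 to 0.853 in WT and 1.03 to 1.15 in the mutant. By group mean the WT order of all 10 genes was vit-6, unc-62, vit-2, vit-5, vit-4, vit-3, vit-1, mab-3, ceh-60 and rme-2, from 96.6 to 23.7 FPKM. In the mutant it was unc-62, vit-2, vit-6, mab-3, ceh-60, rme-2, vit-5, vit-1, vit-4 and vit-3, from 86.0 to 6.28 FPKM. Neighbours in the WT order differed by less than the SD of one of the pair. In the mutant the step from unc-62 to vit-2, from 86.0 to 43.97 FPKM, exceeded the SDs of both (9.08 and 16.3). The same held for the step from mab-3 to ceh-60, from 34.3 to 25.5 FPKM (SDs 2.04 and 6.25), and for that from rme-2 to vit-5, from 20.6 to 10.4 FPKM (SDs 1.21 and 4.58). Some values of the series lay far above these genes, such as K07C5.13 at 5897, 6319 and 12021 FPKM in WT. In the mutant this feature was at 1.25, 0 and 0 FPKM. Its WT values lay close to whole multiples of the worth of 1 read, estimated as 1, 1.072 and 1.019 relative to WT replicate 1. They may thus stand for very few reads and do not show an abundant transcript. The means of 8 abundant muscle, cytoskeletal and ribosomal transcripts, among them unc-54, act-1 and rpl-3, lay in a narrow range, between 194 and 234 FPKM. Of the 10 genes, vit-6 and vit-2 in WT replicate 2 came closest to this level. Whether differences near it are compressed was not tested.

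The receptor gene rme-2 (T11F8.3) was at 22.1, 31.6 and 17.4 FPKM in WT and 21.2, 19.2 and 21.5 FPKM in the mutant. The WT libraries were ordered as for the vitellogenins, over a narrower range, and enclosed the mutant ones. The log2 difference was -0.15 (limma adjusted p = 0.709), with a 95% interval from -0.66 to 0.35, and it was 0.07 without WT replicate 2. The interval thus leaves room for a lower or a higher level in the mutant.

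Among the regulators, mab-3 (Y53C12B.5) was at 27.2, 27.2 and 24.8 FPKM in WT and 36.3, 32.3 and 34.2 FPKM in the mutant. Each mutant library lay above each WT library, a pattern with the mutant above that 13.7% of tested features showed. Within WT and within the mutant the libraries of mab-3 had the order of the vitellogenins, though WT replicates 1 and 2 were nearly equal. The mean rose from 26.4 ± 1.38 to 34.3 ± 2.04 FPKM (SD, n = 3), 1.30-fold, with a log2 difference of 0.36 (SE 0.0763, adjusted p = 0.0470). The call was lost when any single library was left out (limma adjusted p = 0.0787, 0.143 and 0.106 without WT replicate 1, 2 or 3, and 0.171, 0.0973 and 0.0834 without mutant replicate 1, 2 or 3). A fit with the replicate block also lost it (adjusted p = 0.0736). The log2 difference kept between 0.32 and 0.40 in all 14 alternative settings.

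The activator genes showed no detectable difference. Transcript of unc-62 (T28F12.2) was at 74.7, 86.5 and 90.4 FPKM in WT and 78.2, 83.9 and 96.0 FPKM in the mutant, with a log2 difference of 0.04 (95% interval -0.21 to 0.28, adjusted p = 0.878). Transcript of ceh-60 (F22A3.5) was at 29.9, 21.6 and 19.6 FPKM in WT and 28.5, 29.6 and 18.3 FPKM in the mutant, with a log2 difference of 0.09 (interval -0.47 to 0.66, adjusted p = 0.858). For both genes the libraries of the groups were intermixed. Neither followed the order of the vitellogenins: in WT unc-62 was highest in replicate 3, where the vitellogenins were lowest. Levels of both genes were measured over the whole animal, and unc-62 is also expressed outside the intestine.

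Other genes that act on yolk moved little. Of 22 further genes reported to affect vitellogenin expression, among them factors of intestinal identity, insulin, TOR and developmental timing pathways, 1 rose, 0 fell and 21 were not called (8 higher and 0 lower at an unadjusted p under 0.05, limma). Over all tested features 3.34% were called higher, so 1 of 22 is near that share. The gene that rose was pqm-1 (F40F8.7), a zinc-finger factor that works with CEH-60 in the intestine. It was at 75.7, 67.9 and 65.5 FPKM in WT and 94.1, 93.5 and 99.3 FPKM in the mutant, with no overlap and a log2 difference of 0.45 (SE 0.0648, adjusted p = 0.0154). Leaving out WT replicate 2 ended this call (adjusted p = 0.0752), as did leaving out mutant replicate 1 or 2 (0.0619 and 0.0574).

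For 8 of the 22, pqm-1 among them, each mutant library was above each WT library (13.7% of all tested features). Next in size was sma-3 (R13F6.9), a Smad of the body size pathway, at 47.2, 41.2 and 43.6 FPKM in WT and 54.8, 52.7 and 56.8 in the mutant (log2 difference 0.31, adjusted p = 0.0505). The insulin receptor gene daf-2 (Y55D5A.5) was at 32.9, 36.2 and 40.0 FPKM in WT and 42.3, 42.6 and 45.7 in the mutant (log2 difference 0.26, adjusted p = 0.142), and rict-1, daf-16, lin-14, dbl-1 and pop-1 completed the 8. The median log2 difference of the 22 was 0.08.

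Of 21 genes of yolk uptake and endocytosis, which include clathrin, its AP-2 adaptor, dynamin and Rab GTPases, 1 fell, 0 rose (0 higher at an unadjusted p under 0.05) and 20 were not called by limma. Over all tested features 3.06% were called lower, so 1 of 21 is near that share. The median log2 difference of the 21 genes was 0.00. The one that fell was aps-2 (F02E8.3), the small subunit of AP-2, from 115, 120 and 122 FPKM to 102, 104 and 106 FPKM. Its groups did not overlap, and the fall was small (log2 difference -0.19, SE 0.0410, adjusted p = 0.0492). Leaving out WT replicate 2 or 3 ended the call (adjusted p = 0.183 and 0.119), as did leaving out mutant replicate 1, 2 or 3 (0.176, 0.159 and 0.0610) or adding the replicate block (0.0599). It was lost as well with pseudocounts of 0.1 and 0.5 (0.0531 and 0.0510), with no filter on low values (0.0588) and with no trend in the prior variance (0.120), and held in 4 of 14 alternative settings.

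Of 12 genes of lipoprotein assembly and secretion limma called 0, and 1 was higher and 0 were lower at an unadjusted p under 0.05. The median log2 difference was 0.02. The list includes dsc-4 (K02D7.4), the large subunit of the microsomal triglyceride transfer protein, which loads lipid on vitellogenin-type proteins. It was at 95.7, 104 and 114 FPKM in WT and 113, 116 and 124 FPKM in the mutant, with overlapping groups. The gene closest to a call was ire-1 (C41C4.4), a sensor of unfolded proteins in the endoplasmic reticulum, at 57.2, 52.4 and 55.1 FPKM in WT and 62.7, 65.8 and 64.2 in the mutant (log2 difference 0.22, adjusted p = 0.0618).

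**Figure D4:**
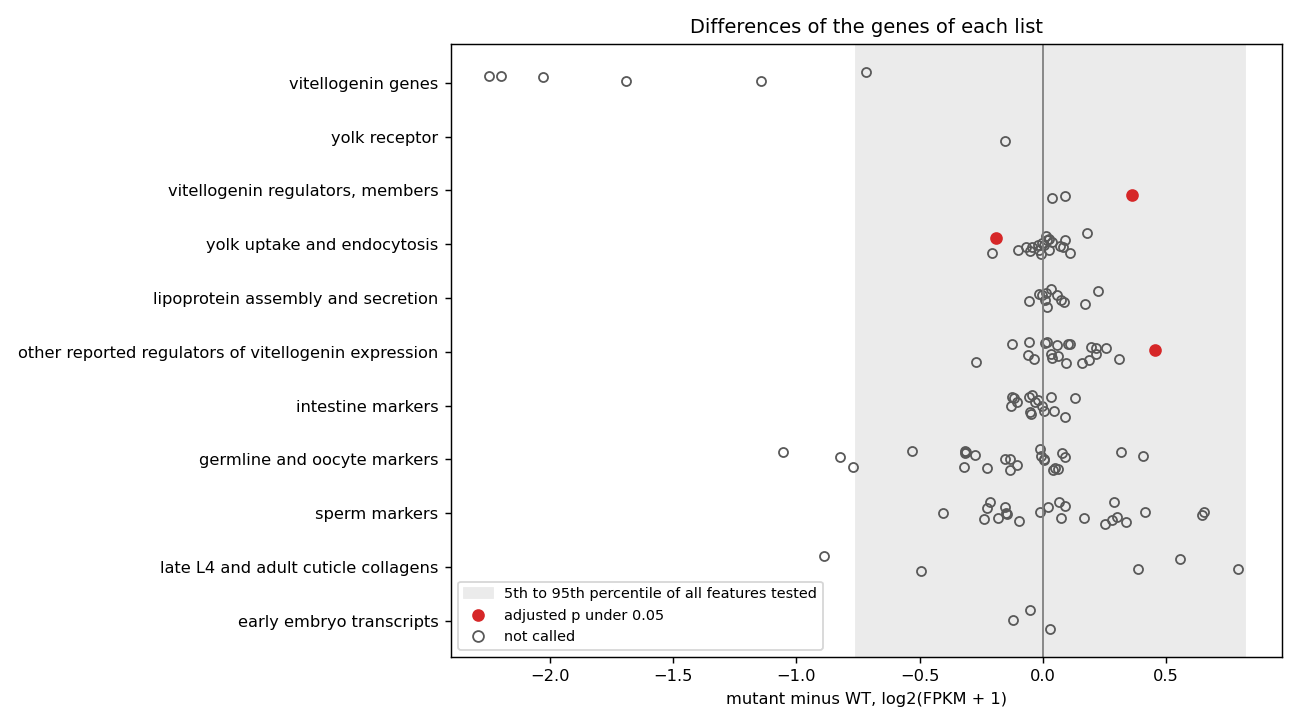
Difference between mutant and WT in log2(FPKM + 1) (horizontal axis) for each tested gene of the lists, with called genes filled in red and the band from the 5th to the 95th percentile of all tested features (-0.76 to 0.82) in grey. Of the vitellogenins, 5 of 6 lie left of the band, while the genes of uptake, secretion and regulation lie inside it. Of the marker genes, perm-2 (-1.05), col-19 (-0.89), puf-5 (-0.82) and perm-4 (-0.77) also lie left of the band, and the others lie inside it.

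Markers of other cells and stages were read beside the vitellogenins. The 16 intestine markers, which include elt-2, ges-1 and act-5, summed to 1919, 2041 and 2004 FPKM in WT and 1924, 1959 and 2010 FPKM in the mutant. None was called (limma, 1 higher and 2 lower at an unadjusted p under 0.05), and the summed levels of the groups overlapped. Their median log2 difference was -0.04. The most abundant of them, asp-1 and act-5, had means in the narrow range of the 8 abundant transcripts. Whether differences there are compressed was not tested, so the sum says little about the amount of intestine. Of those at lower levels, the GATA factor gene elt-2 (C33D3.1) was at 53.3, 58.98 and 61.2 FPKM in WT and 54.7, 57.03 and 54.9 FPKM in the mutant.

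The 25 germline and oocyte markers summed to 1030, 1322 and 1005 FPKM in WT and 1022, 1052 and 1048 FPKM in the mutant, and 13 of 25 had the WT order of the vitellogenins. The 25 sperm markers summed to 348, 524 and 174 FPKM in WT and 388, 308 and 250 FPKM in the mutant, and 17 of 25 had that order. For the germline and oocyte list the median log2 difference was -0.13, with 16 genes below 0 and 9 above, and for the 23 tested genes of the sperm list it was 0.06. Among the germline genes pgl-3 and pie-1, which act in P granules and in germline fate, were at 1.31 and 1.23 times the WT mean in the mutant. None of either list was called (limma, 0 and 2 higher and 0 and 0 lower at an unadjusted p under 0.05). None was at 0 in all 6 libraries.

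Markers of late stages were divided. Among 5 cuticle collagens of the late L4 and adult stages, limma called 0 (0 at an unadjusted p under 0.05), and their sum was 285, 277 and 151 FPKM in WT and 283, 244 and 175 in the mutant. This list had a median log2 difference of 0.39, with 2 genes below 0, col-19 and col-7, and 3 above, bli-1, bli-2 and bli-6. The adult collagen gene col-19 (ZK1193.1) was at 101, 123 and 33.5 FPKM in WT and 51.4, 34.4 and 35.9 FPKM in the mutant. The adult collagen gene col-7 (C15A11.5) was at 27.1, 46.5 and 2.26 FPKM in WT and 16.8, 8.599 and 8.098 FPKM in the mutant. Both were thus high in WT replicates 1 and 2 and low in WT replicate 3, as the yolk genes were. The other collagen genes of the list had higher means in the mutant, bli-1 by 1.76-fold, bli-2 by 1.52-fold and bli-6 by 1.30-fold on mean FPKM. Of these, bli-1 and bli-2 were lowest in WT replicate 2, where the yolk genes were highest. In the germline and oocyte list, perm-2 and puf-5 had the lowest differences. The oocyte gene puf-5 (F54C9.8), an RNA-binding translational repressor, was at 19.9, 30.6 and 8.19 FPKM in WT and 10.9, 7.89 and 9.37 FPKM in the mutant. These genes were singled out after their values were seen.

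The ratio of the summed vitellogenins to col-19 was 3.83, 4.32 and 3.71 in WT and 3.03, 2.10 and 3.39 in the mutant. Each mutant ratio was below each WT ratio. The range was narrower than that of either level, but col-19 was singled out because it varied like the yolk genes. The narrower range follows from that choice and is no separate result. No such ratio was taken for col-7 or the bli genes. Transcripts of the early embryo were near 0: of 12, 9 had a mean under 1 FPKM, and tbx-38 was at 0 in all 6 libraries. The maternally supplied skn-1 and pal-1 made up most of their sum. The part that stage or the number of adult cells has in the yolk values was not tested.

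A search over 14965 other protein-coding genes with at least 300 nt of exon looked for levels that varied like the vitellogenins. Likeness was the root mean square difference between the log2(FPKM + 1) profile of a gene, centred on its mean over the 6 libraries, and the mean centred profile of the 6 vitellogenins. The 10 most alike genes were Y62H9A.3, col-8, Y62H9A.4, perm-2, Y57G11B.5, F55B11.2, ZK813.1, tbh-1, C39D10.7 and ZK813.3, with differences of 0.256 to 0.4002 log2 units. For comparison, the value of the vitellogenins themselves, which entered the mean, was 0.155 (vit-1) to 0.486 (vit-2), and that of rme-2 was 0.919. None of the 10 was called in the comparison of mutant with WT, and for each the groups overlapped.

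Of these, perm-2 (C44B12.1) encodes a protein of the eggshell. It was at 52.1, 61.99 and 13.8 FPKM in WT and 20.7, 12.3 and 18.2 FPKM in the mutant (log2 difference -1.05, limma adjusted p = 0.321). The cuticle collagen gene col-8 (F11H8.3) was at 80.9, 97.7 and 18.5 FPKM in WT and 32.4, 17.1 and 23.5 FPKM in the mutant (log2 difference -1.14, adjusted p = 0.342). The gene tbh-1 (H13N06.6), which encodes tyramine beta-hydroxylase of octopamine synthesis, was at 9.18, 9.84 and 2.63 FPKM in WT and 3.37, 1.84 and 2.98 in the mutant. The most alike, Y62H9A.3, was at 10.3, 16.02 and 2.57 FPKM in WT and 3.93, 1.77 and 1.67 FPKM in the mutant. In each of these 4 genes WT replicate 2 was the highest of all 6 libraries and WT replicate 3 fell among or next to the mutant libraries. Each of the 4 differed from vit-3 in that at least 1 mutant library exceeded WT replicate 3.

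**Figure D5:**
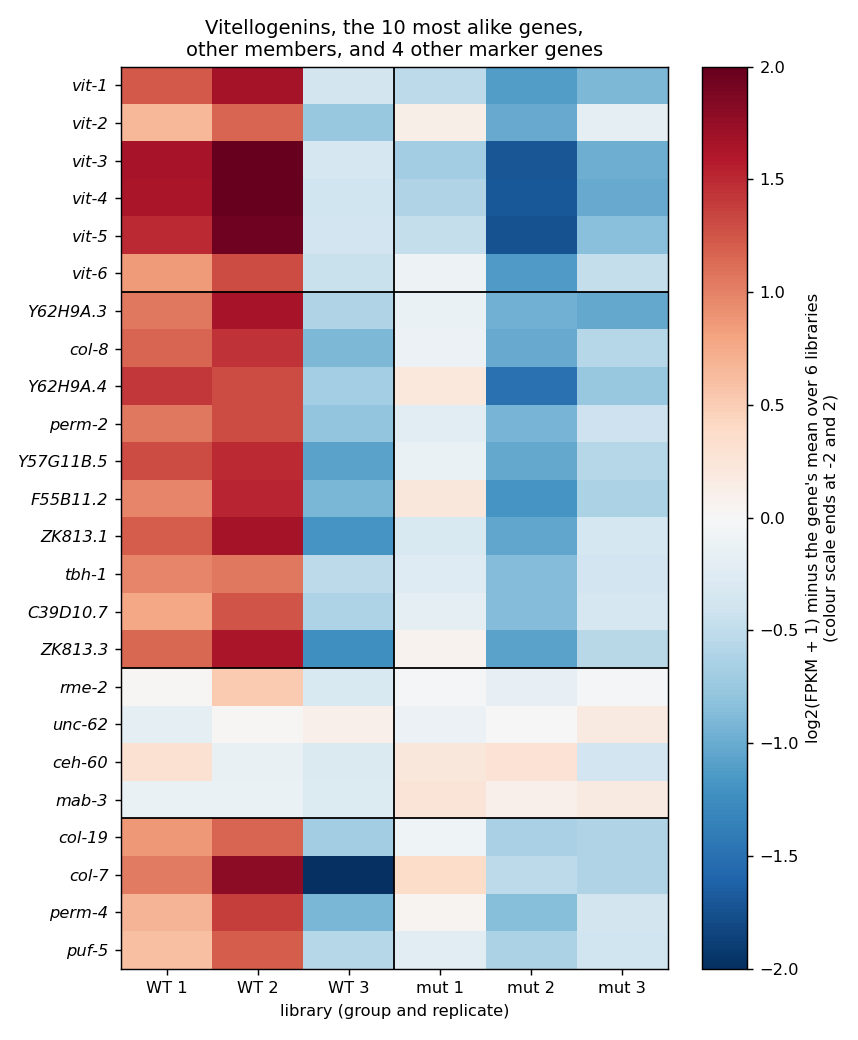
Level of each gene in each library as log2(FPKM + 1) minus the mean of the gene over the 6 libraries, in colour, for the 6 vitellogenins (top), the 10 most alike genes, the 4 other members, and col-19, col-7, perm-4 and puf-5 (bottom, chosen after their values were seen). The vitellogenins and the alike genes are red in WT replicates 1 and 2 and mostly blue elsewhere, while unc-62, ceh-60 and mab-3 are pale throughout.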

How the data were processed

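Messenger RNA of mid-L3 larvae was extracted with Qiazol and made into TruSeq libraries (from the labels' protocols). The authors deposited 1 table of FPKM values, each library in its own column. The submitters' processing notes name Cuffdiff, TopHat2 2.0.7 and Cufflinks 2.0.2. The genome build, the annotation and how duplicate or multiply mapped reads were treated were not given in the sources used here. Hence no coordinates are printed. Libraries were grouped by title. Symbols, biotypes and exon lengths came from WBcel235 tables, which matched 44880 of 45343 features.

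FPKM values are not counts, so log2(FPKM + 1) was fitted with limma 3.58.1 in R 4.3.3 (group as the single term, trended prior variance, mean of at least 1 FPKM, Benjamini-Hochberg adjustment over 17058 features). The script was tested on simulated data. Log2 differences understate changes of low genes, and fold values on mean FPKM are named as such. Depth was estimated from 258 single-isoform genes of 1000 to 4000 nt with a mean under 1 FPKM, and serves as a description only.

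The members and lists were chosen with earlier results of these data known. Genes were named by a rule: the 10 members, blmp-1, called genes of the 3 pathway lists and the 10 most alike genes; others are marked as chosen later, and dsc-4, sma-3, daf-2 and ire-1 were also named after their values were seen. Alternatives were a smaller pseudocount (0.1 or 0.5), omission of the filter, a 5 FPKM minimum, median ratio scaling, no variance trend, library weights, a replicate block and leaving out each library.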

Additional observations from a re-analysis of the deposited data

How the results depend on the processing

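The number of the 10 genes called higher (mab-3, 1 of 10) was 0 with no filter on low values, with no trend in the prior variance and with the replicate block, and also 0 whichever single library was left out. The number called lower (0) was 5 with library weights and 0 to 4 when 1 library was left out, the 4 without WT replicate 3. Over all features 570 were called higher and 522 lower; with library weights these were 2005 and 2112, and leaving out 1 library gave 192 to 620 higher and 177 to 712 lower. Leaving out a library also lowers the number of samples; beyond that the cause was not tested. The log2 difference of unc-62 was -0.0629 with library weights and -0.0455 to 0.101 when 1 library was left out. That of ceh-60 was -0.0288 to 0.305 when 1 library was left out, so unc-62 and ceh-60 have no stable direction. That of rme-2 was -0.460 with library weights and -0.345 to 0.0688 when 1 library was left out. It was below 0 in 13 of 14 alternative settings, and rme-2 was called in 0 of them. The median log2 difference of all features stayed between -0.0112 and 0.00661.

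Same-numbered libraries of the groups deviated from their group means with correlations of 0.133, -0.0352 and 0.0697. For differently numbered libraries the correlations were -0.138 to 0.0565. With 3 libraries per group these values cannot decide whether the numbers pair the libraries. With the replicate block 504 features were called higher and 425 lower. The limits are 3 libraries per group, a spread of vitellogenin levels within WT of the size of the difference between groups, similar paralogs, and values without deposited counts.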
